A study of Mus musculus with 84 samples.

Results

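Oxidative phosphorylation runs on 5 protein complexes of the inner mitochondrial membrane, and most of their subunits are encoded in the nucleus. The genes described here are those nuclear subunit genes in MMC9s, the IL-9-producing mucosal mast cells of the mouse small intestine. Members were chosen by name, from the symbols that NADH dehydrogenase (Nduf), succinate dehydrogenase (Sdh), ubiquinol-cytochrome c reductase (Uqcr), cytochrome c oxidase (Cox4 to Cox8) and ATP synthase (Atp5) subunits carry, leaving out names that hold -ps. Of 55471 genes, 89 matched, and the 76 with 20 or more reads summed over the 3 bulk libraries are the members. They are 35 genes of complex I, 4 of complex II, 8 of complex III, 12 of complex IV and 17 of complex V. The read minimum fell in a wide gap, since the lowest member, Ndufa12, had 45 summed reads and the highest name left out had 14. Of the 10479 genes that pass the same minimum, the members are a small part.

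The bulk data were 3 RNA-seq libraries of sorted MMC9s from BALB/c mice, 1 each of WT, IL-4RaY709F (whose IL-4 receptor alpha allele gains function) and IL-4Ra-/- (which lacks that receptor's function). In all 3 groups the mice that carried the cells were ovalbumin-sensitized WT animals that received bone marrow progenitors of the named genotype and then 7 oral ovalbumin challenges, 3 per week. Each RNA was a pool of 12 to 20 biological replicates, so a library shows no spread between animals, and there is no replicate check on any difference. The second data set held 81 single WT MMC9s of BALB/c mice from an Ova/alum model. Their gate was c-Kit+ and ST2+, β7-integrin low, IL-4GFP high, and negative for lineage markers and IL-17RB2. No animal is named for them, so they count as 1 sample. The labels name no gate for the bulk cells. The mutant libraries are called IL4RaY709F and IL4Ra-/- here.

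Electrons enter the chain from NADH at complex I and from succinate at complex II, pass through complex III to complex IV, which reduces oxygen, and the proton gradient built on the way drives ATP synthesis by complex V. Nuclear subunits are made in the cytosol and imported, while a few core subunits are encoded by mitochondrial DNA. Mast cells draw on this ATP for mediator release and for growth, alongside glycolysis.

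The bulk libraries held 2299793 gene reads in WT, 2521791 in IL4RaY709F and 2330628 in IL4Ra-/-. Levels are CPM, reads relative to the library's size after scaling with trimmed means of M-values (TMM), and RPKM divides CPM by exon length in kilobases. Each log2 ratio has an exact 95% interval of counting error. A gene passed the size rule at 50 or more reads in the larger library, a ratio of 2-fold or more and an interval that excluded a ratio of 1, and a smaller rule used 1.5-fold. Il4ra itself was at 353 CPM in the WT library, at 787 with the gain-of-function allele and at 138 with the loss. The IL4Ra-/- library thus still held Il4ra reads (350), and these levels do not test the labels. All 12 mast cell markers were read in every library, and their sum was 62352, 88667 and 58778 CPM in that order. Markers of other cells were unequal between the libraries: 10 macrophage genes summed to 172, 89.0 and 583 CPM, 8 plasma cell genes to 6693, 3174 and 13521, 8 dendritic cell genes to 301, 257 and 781, and 10 epithelial genes to 28, 28.8 and 68. T cell genes summed to 158, 198 and 276 CPM and B cell genes to 14.9, 15.5 and 27.9. The ILC2 sum (72.2, 106 and 50.7 CPM) and the stromal or endothelial sum (224, 374 and 212 CPM) were highest in IL4RaY709F. Cd3e held 349, 456 and 671 of the 360, 461 and 702 T cell reads. Il7r held 110, 161 and 80 of the 165, 246 and 129 ILC2 reads. Pecam1 held 498, 863 and 501 of the 513, 871 and 539 stromal or endothelial reads. Of the WT single cells, 37.5% had 10 or more reads of Cd3e, 23.75% of Il7r and 56.25% of Pecam1. Plasma cell markers were also read in them: Xbp1 in 47.5%, Igha in 33.75%, Igkc in 25%, Jchain in 21.25%, and the others in 6.25% or fewer. Of the dendritic cell markers, H2-Ab1 was read in 27.5%, Cd74 in 17.5%, and the others in 15% or fewer. No macrophage marker was read in more than 8.75%. None of the macrophage markers was at 0 reads in any library. Of the plasma cell markers 1 was at 0 in WT, of the dendritic cell markers 2 were at 0 in WT and 1 in each mutant, and of the epithelial markers 2 were at 0 in WT. The IL4Ra-/- library therefore had the highest sum of 6 of these 8 lists and the lowest members' sum. The T cell, ILC2 and stromal or endothelial sums came mostly from Cd3e, Il7r and Pecam1. The part of other cells in the members' levels was not tested.

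All 76 members had the same coordinates in the GRCm38 annotation, were annotated as protein coding and lay on 19 chromosomes, with 3 on the X (Ndufa1, Ndufb11 and Cox7b). The members were shorter in the median but not alike in size. Their median summed exon length was 1696.5 bases (419 to 8086), against 4443 over the genes tested. RefSeq promoter windows (GRCm38.p6, 250 bases before to 50 after the start) were matched by symbol for 64 members, and those with no entry included Ndufa2, Ndufb9, Ndufs1, Sdhc, Uqcrb, Uqcrc2, Uqcrq, Cox4i1, Cox6c, Atp5a1 and Atp5mpl. The windows were searched on both strands for letters known from promoters of respiratory genes, and matches are descriptions, not bound sites. The NRF1 pattern was in the windows of 17 of 64 members (26.6%), against 5.19% of all 27025 genes with a window and 12.8% of the 7937 of them that were tested. CCGGAAG, a pattern of ETS factors such as GABP, was also in 17 of 64, against 9.93% of all and 22.3% of the tested genes. AAGATGGC, a pattern of YY1, was in 10 of 64 (15.6%), against 3.19% and 5.95%. At least 1 of the 3 was in 38 of 64 members (59.4%), against 16.4% and 35.8%. By complex, the NRF1 pattern was in 7 of 31 matched members of complex I, 2 of 3 of II, 1 of 5 of III, 1 of 10 of IV and 6 of 15 of V.

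The 4 windows printed here belong to the members that differed past the 2-fold rule between the 2 mutants. Ndufa6 lies at chr15:82354242-82354541, Cox8a at chr19:7217567-7217866, Cox7a2l at chr17:83514284-83514583, all on the minus strand, and Cox5b at chr1:36691237-36691536 on the plus strand. Each is written 5′ to 3′ along its gene, and capitals mark matches to the patterns above.
Ndufa6: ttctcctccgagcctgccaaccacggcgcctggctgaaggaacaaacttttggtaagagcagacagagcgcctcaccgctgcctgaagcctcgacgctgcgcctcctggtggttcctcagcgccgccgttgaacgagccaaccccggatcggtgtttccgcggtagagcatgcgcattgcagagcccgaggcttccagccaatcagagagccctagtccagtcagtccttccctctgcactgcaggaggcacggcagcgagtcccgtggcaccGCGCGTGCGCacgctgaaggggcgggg
Cox8a: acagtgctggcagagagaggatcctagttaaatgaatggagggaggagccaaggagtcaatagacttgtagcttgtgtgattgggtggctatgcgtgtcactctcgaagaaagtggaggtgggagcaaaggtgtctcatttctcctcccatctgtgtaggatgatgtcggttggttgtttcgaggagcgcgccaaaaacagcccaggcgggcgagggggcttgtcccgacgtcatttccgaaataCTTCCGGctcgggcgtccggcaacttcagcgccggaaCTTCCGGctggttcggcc
Cox7a2l: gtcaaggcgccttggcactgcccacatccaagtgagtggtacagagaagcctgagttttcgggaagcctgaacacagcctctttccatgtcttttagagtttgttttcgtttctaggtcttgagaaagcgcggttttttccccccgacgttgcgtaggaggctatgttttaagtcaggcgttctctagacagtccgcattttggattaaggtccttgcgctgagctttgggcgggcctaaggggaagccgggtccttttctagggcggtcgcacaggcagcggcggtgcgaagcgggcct
Cox5b: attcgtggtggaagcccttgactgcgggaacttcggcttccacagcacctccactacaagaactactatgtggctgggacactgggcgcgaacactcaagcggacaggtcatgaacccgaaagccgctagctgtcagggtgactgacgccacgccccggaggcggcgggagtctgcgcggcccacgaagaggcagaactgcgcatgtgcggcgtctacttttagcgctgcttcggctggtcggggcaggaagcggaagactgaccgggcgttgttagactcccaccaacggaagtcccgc
Ndufa6 has the NRF1 pattern on the opposite strand, Cox8a has the ETS pattern at 2 places on the opposite strand, and these letters were not in the windows of Cox7a2l and Cox5b.

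The members took 11693 reads in WT (0.508% of gene reads), 13613 in IL4RaY709F (0.540%) and 11066 in IL4Ra-/- (0.475%). After scaling, their sums were 5116, 5853 and 4352 CPM in the same order, so IL4RaY709F was highest and IL4Ra-/- lowest. In bulk RNA, fewer cells of a type and less RNA per cell cannot be told apart. Complex V was the largest, with 2301, 2643 and 2008 CPM in WT, IL4RaY709F and IL4Ra-/-. Complex I came next with 1096, 1226 and 952 CPM, then complex IV with 874, 1035 and 665 CPM, complex III with 512, 614 and 409 CPM, and complex II with 334, 335 and 317 CPM. Every complex was in that same order over the libraries after scaling, and complex II differed least. As a share of gene reads, complex II was instead lowest in IL4RaY709F (0.0309%) and highest in IL4Ra-/- (0.0346%).

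The comparison of IL4RaY709F with WT asks what added IL-4 receptor activity does to these genes. The differences were small and mostly upward: the members' median log2 ratio was 0.18, against 0.00 over all 10479 genes tested, and 63 of 76 members were above 0, against 50.3% of all genes, and 13 below, against 49.7%. None of the 64 members with 50 or more reads passed the 2-fold rule in either direction, where 1.68% of the tested genes were higher and 0.771% lower. By the 1.5-fold rule 6 members were higher (Ndufb3, Ndufb5, Uqcrb, Uqcrh, Atp5g2 and Atp5o) and 2 were lower (Ndufs7 and Atp5l), against 6.15% and 3.55% of the tested genes, so the share called was near the background. The interval excluded 1 upward for 16 members and downward for 2, against 18.1% and 13.6%. With library totals in place of TMM, 47 of 76 members were above 0, against 40.2% of all genes under that scaling. The 1.5-fold count of higher members was then 2 (Ndufb5 and Atp5g2), against 4.02%, since Ndufb3, Uqcrb, Uqcrh and Atp5o fell short at log2 ratios of 0.54, 0.50, 0.49 and 0.50.

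In IL4Ra-/- against WT, which asks what loss of the receptor does, most members were below WT. The median was -0.21, against -0.03 over all genes, and 60 of 76 members were below 0, against 52.3%. Of the 62 members with 50 or more reads, 1 passed the 2-fold rule (Ndufa6, lower, against 1.3% of tested genes) and none was 2-fold higher (2.43%). By the 1.5-fold rule 4 members were lower (Ndufa6, Cox5b, Cox7a2l and Cox8a), against 8.85%, and 0 were higher, against 6.52%. The interval excluded 1 downward for 17 members and upward for 0, against 27.4% and 12.6%. With library totals 48 of 76 members were below 0, against 41% of all genes under that scaling, and the 4 members lower by the 1.5-fold rule were the same, against 4.76%. This comparison and the one before it share the WT library.

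Between the mutants, IL4RaY709F had the higher level for 67 of 76 members (52% of all genes), with a median log2 ratio of 0.44, against 0.02 over all genes. Of 64 members with 50 or more reads, 4 were higher past the 2-fold rule (Ndufa6, Cox5b, Cox7a2l and Cox8a), against 4.62% of tested genes, and 0 were lower, against 3.5%. By the 1.5-fold rule 19 were higher, against 14.6%, and 0 were lower, against 8.36%. The interval excluded 1 upward for 35 of the 64, against 30.1% of the tested genes, and downward for 0, against 16.6%. With library totals the 1.5-fold count was 6, against 7.22% of tested genes under the same scaling, and the 2-fold count was 1 (Cox7a2l), against 2.29%. Under that scaling 55 of 76 members were above 0, against 33.6% of all genes. With TMM, other genes of 1000 to 2000 exon bases and 100 or more summed reads had a median of 0.39, with 80.2% above 0. By the 1.5-fold rule 148 of 423 of these were higher and 15 lower. The 30 members of that length had a median of 0.48, with 26 above 0, and 10 of 25 were higher by that rule.

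**Figure D1:**
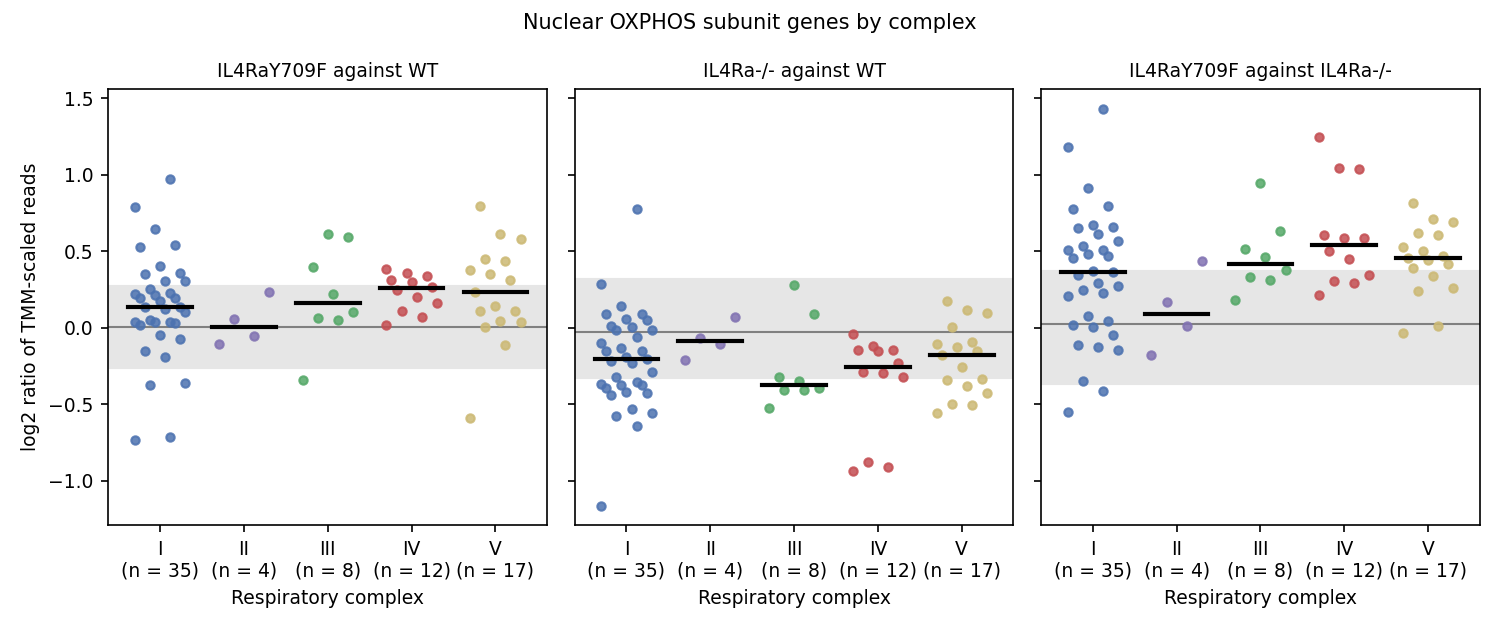
Log2 ratio of TMM-scaled reads (y axis) of each member, 1 point per gene, by respiratory complex (x axis) in the 3 comparisons. Black bars are medians of the complex, the grey line and band are the median and quartiles of all 10479 genes tested. All 12 complex IV members are above 0 in the left panel and below 0 in the middle panel under TMM scaling, and 10 of 12 are so in each with library totals.

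The plot of log2 ratios by complex shows where the members spread. In complex I, the NADH dehydrogenase, the median log2 ratio was 0.14 in IL4RaY709F and -0.20 in IL4Ra-/-. In IL4RaY709F 27 of 35 members were above 0, against 50.3% of all genes. In IL4Ra-/- 26 of 35 were below 0, against 52.3%. With library totals these counts were 20 and 21 of 35, against 40.2% and 41% of all genes. The 16 subunits of the matrix arm, which binds NADH and carries the flavin and iron-sulfur clusters, had medians of 0.08 and -0.10. The 19 subunits of the membrane arm, which houses the proton pumps, had medians of 0.19 and -0.35.

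The catalytic core of the matrix arm differed little. Ndufs1, the largest iron-sulfur subunit, stood at 63.9 CPM in WT, 61.9 in IL4RaY709F and 64.1 in IL4Ra-/-. Ndufv1, which carries the flavin and the NADH site, stood at 52.5, 47.3 and 44.8 CPM in the same order, and Ndufv2, its iron-sulfur partner, at 50.8, 64.9 and 51.1. Every interval of these 3 genes included a ratio of 1 in both comparisons with WT. Ndufs3 stood at 20.1, 17.6 and 19.3 CPM and Ndufs8, another iron-sulfur subunit, at 31.1, 31.8 and 23.2 CPM, also with intervals that included 1. Ndufs7, which holds the last iron-sulfur cluster before ubiquinone, was the exception at 25.4, 15.5 and 19.7 CPM. It was 1.64-fold lower in IL4RaY709F (1.06 to 2.56), from 58 reads to 36, while the IL4Ra-/- log2 ratio was -0.37 (-0.94 to 0.20).

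Ndufa6 (ENSMUSG00000022450, chromosome 15, 82350140 to 82354322), an accessory subunit of the LYR family that binds the acyl carrier protein, had 171 reads in WT, 176 in IL4RaY709F and 85 in IL4Ra-/-, or 74.8, 75.7 and 33.4 CPM. The IL4Ra-/- library stood apart and the other libraries were alike. The level was 2.24-fold lower in IL4Ra-/- than in WT (1.72 to 2.94), and the log2 ratio in IL4RaY709F was 0.02 (-0.30 to 0.33). Ndufb5 (ENSMUSG00000027673, chromosome 3, 32736990 to 32751566), a membrane-arm accessory subunit, showed another pattern, with 63, 126 and 73 reads, or 27.6, 54.2 and 28.7 CPM. It was 1.97-fold higher in IL4RaY709F (log2 0.97, 0.53 to 1.43), while IL4Ra-/- had a log2 ratio of 0.06 (-0.45 to 0.57).

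Among other membrane-arm accessory subunits, Ndufb11 stood at 75.7, 88.1 and 51.5 CPM in WT, IL4RaY709F and IL4Ra-/-, with a log2 ratio of -0.56 in IL4Ra-/- (-0.89 to -0.22). Ndufa13, also described as the apoptosis-related protein GRIM-19, stood at 45.5, 49.4 and 31.5 CPM, with -0.53 (-0.97 to -0.10). Neither reached 1.5-fold against WT. Ndufa10 stood at 53.4, 54.6 and 59 CPM, with intervals that included 1. Ndufa1 was the highest of complex I per kb of exon in WT, at 83.5 RPKM, and Ndufb2 the lowest at 1.63. Over the 35 members the log2 ratios ran from -0.74 (Ndufa12, with 18, 11 and 16 reads) to 0.97 (Ndufb5) in IL4RaY709F, and from -1.16 (Ndufa6) to 0.78 (Ndufa5, with 21, 25 and 40 reads) in IL4Ra-/-.

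Complex II, succinate dehydrogenase, belongs to the tricarboxylic acid cycle as well and is the only complex with no subunit from mitochondrial DNA. It was the flattest of the 5, with a median log2 ratio of 0.00 in IL4RaY709F and -0.09 in IL4Ra-/-, and with both signs dependent on the scaling. Sdha, the flavoprotein that oxidizes succinate, stood at 174 CPM in WT, 167 in IL4RaY709F and 166 in IL4Ra-/-. Sdhb, the iron-sulfur subunit, stood at 65.6, 68.4 and 61 CPM. The membrane anchors Sdhc and Sdhd stood at 47.3, 55.5 and 40.9 CPM and at 47.3, 43.9 and 49.5 CPM. All 4 intervals included 1 in both comparisons with WT, and the summed log2 ratio was 0.00 (-0.14 to 0.15) and -0.07 (-0.22 to 0.07).

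Complex III, the cytochrome bc1 complex, had medians of 0.16 and -0.37. In IL4RaY709F 7 of 8 members were above 0, against 50.3% of all genes (4 of 8 with library totals, against 40.2%). In IL4Ra-/- 6 of 8 were below 0, against 52.3% (6 of 8 with library totals, against 41%). Uqcrh (ENSMUSG00000063882, chromosome 4, 116066965 to 116075071), the hinge protein that meets cytochrome c, had 307, 472 and 268 reads in WT, IL4RaY709F and IL4Ra-/-, or 134, 203 and 105 CPM. It was 1.51-fold higher in IL4RaY709F (log2 0.60, 0.38 to 0.81), which did not reach 1.5-fold with library totals (log2 0.49), and its log2 ratio in IL4Ra-/- was -0.35 (-0.59 to -0.11). Uqcrb, a small subunit near the ubiquinone site, stood at 27.6, 42.1 and 33.4 CPM and was 1.53-fold higher in IL4RaY709F (log2 0.61, 0.14 to 1.09), also short of 1.5-fold with library totals (log2 0.50). The core proteins Uqcrc1 and Uqcrc2 stood at 108, 113 and 81.8 CPM and at 101, 109 and 76.3 CPM, with log2 ratios near 0 in IL4RaY709F (0.07 and 0.11) and of -0.40 and -0.41 in IL4Ra-/-. Both IL4Ra-/- intervals excluded 1. Uqcrfs1, the Rieske iron-sulfur protein, stood at 55.6, 57.6 and 44.4 CPM, with intervals against WT that included 1. Per kb in WT, Uqcrh was highest at 109 and Uqcrq lowest at 9.08 RPKM.

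**Figure D2:**
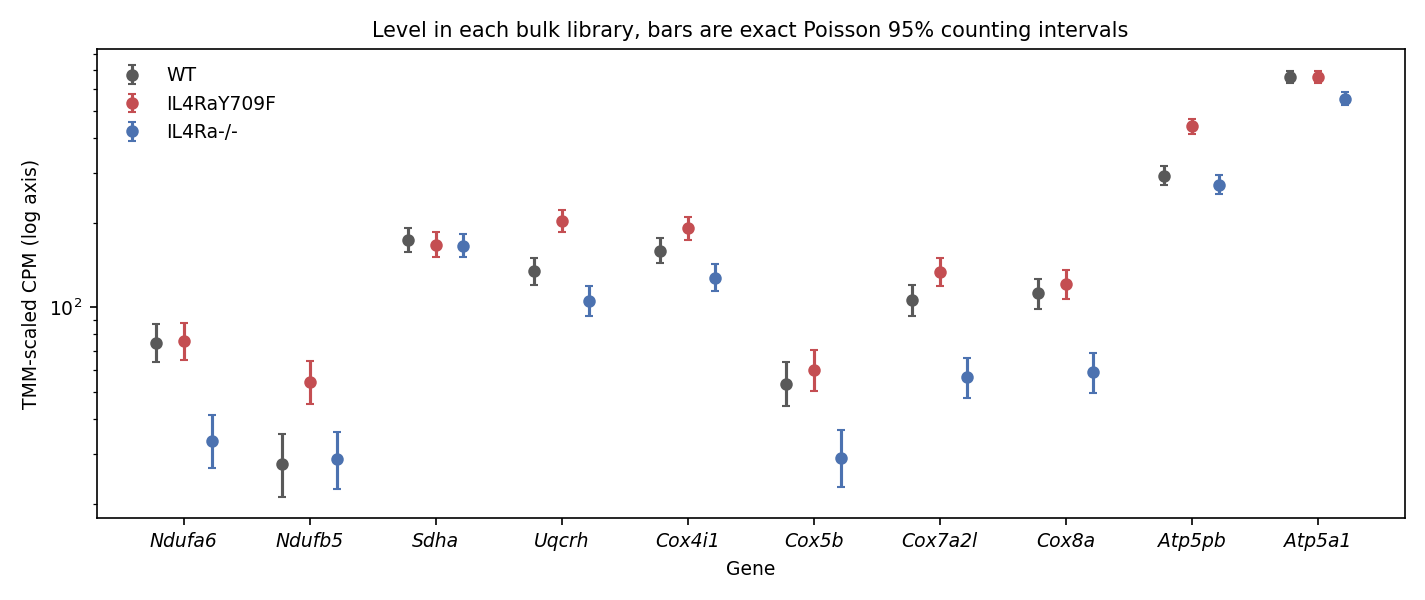
TMM-scaled CPM (y axis, log scale) of 10 members (x axis) in the 3 bulk libraries, 1 library per genotype. Bars are exact Poisson 95% intervals of counting error. The IL4Ra-/- points of Ndufa6, Cox5b, Cox7a2l and Cox8a lie below both other libraries, and the IL4RaY709F points of Ndufb5, Uqcrh and Atp5pb lie above them.

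Complex IV, cytochrome c oxidase, was the complex whose members were least mixed in sign. All 12 were above 0 in IL4RaY709F (50.3% of all genes) and all 12 below 0 in IL4Ra-/- (52.3%), which became 10 of 12 each with library totals. The medians were 0.26 and -0.26, and 0.54 between the mutants. Cox8a (ENSMUSG00000035885, chromosome 19, 7215153 to 7217616), a small subunit of the complex, had 256 reads in WT, 281 in IL4RaY709F and 149 in IL4Ra-/-, or 112, 121 and 58.6 CPM. It was 1.91-fold lower in IL4Ra-/- (1.56 to 2.36). Cox5b (ENSMUSG00000061518, chromosome 1, 36691449 to 36693681), a zinc-binding subunit on the matrix side, had 122, 139 and 74 reads, or 53.4, 59.8 and 29.1 CPM, and was 1.83-fold lower (1.36 to 2.48). Cox7a2l (ENSMUSG00000024248, chromosome 17, 83501918 to 83517330), a factor that joins complexes III and IV into supercomplexes rather than a core subunit, had 242, 311 and 143 reads, or 106, 134 and 56.2 CPM. It was 1.88-fold lower in IL4Ra-/- (1.53 to 2.33), and its IL4RaY709F log2 ratio was 0.34 (0.09 to 0.59). For these 3 genes the IL4Ra-/- library was the one set apart.

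The other complex IV genes differed by less. Cox4i1, the largest nuclear subunit and the site of ATP inhibition, stood at 159, 191 and 127 CPM in WT, IL4RaY709F and IL4Ra-/-, with log2 ratios of 0.26 (0.06 to 0.47) and -0.32 (-0.54 to -0.10). It passed the 1.5-fold rule between the mutants (log2 0.59), a call that did not hold under any of the 3 other scalings (0.34 to 0.58). Cox6a1 stood at 70, 91.2 and 64.5 CPM, with 0.38 (0.08 to 0.69) in IL4RaY709F. Cox6b1, which faces the intermembrane space, stood at 78.3, 100.2 and 66.9 CPM, with 0.36 (0.07 to 0.64). Cox5a stood at 22.8, 27.9 and 20.4 CPM and was the lowest of the complex per kb, at 10.8 RPKM in WT, while Cox8a was the highest at 181. Ndufa4, once placed in complex I and since assigned to complex IV, stood at 65.6, 68.8 and 59.4 CPM, with intervals that included 1.

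Several complex IV subunits have isoforms that other tissues use, such as heart, skeletal muscle, lung or testis. In MMC9s the widely expressed form carried the reads. Cox4i2, Cox6a2, Cox7a1, Cox7b2, Cox8b, Cox8c and Ndufa4l2 each had 0 to 3 reads in every bulk library, at or under the floor of 3 reads, so no ratio is given. Cox6b2, a testis form, had 7, 5 and 2 reads. In single cells Cox4i2, Cox6a2, Cox7b2, Cox8b, Cox8c and Ndufa4l2 reached 10 reads in 0 of 80 cells, which allows a share of up to 4.51%, Cox7a1 in 1 cell and Cox6b2 in 7 (8.75%).

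Complex V, the ATP synthase, split by part. The 5 subunits of F1, the catalytic head, had medians of 0.11 in IL4RaY709F and -0.26 in IL4Ra-/-. Atp5a1, the alpha subunit and the highest member per kb in WT (211 RPKM), had 1510, 1542 and 1406 reads, or 661, 663 and 553 CPM, with log2 ratios of 0.01 (-0.10 to 0.11) and -0.26 (-0.36 to -0.15). Atp5b, the catalytic beta subunit, stood at 561, 619 and 525 CPM, with 0.14 (0.03 to 0.25) and -0.09 (-0.21 to 0.02). These were the deepest-read members, with the narrowest intervals, and both differed by less than 1.5-fold in each comparison with WT.

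The peripheral stalk, which holds the head still against the rotor, had the highest median of any part in IL4RaY709F, 0.52 over its 4 genes, and -0.05 in IL4Ra-/-. Atp5pb (ENSMUSG00000000563, chromosome 3, 105942698 to 105960099), the b subunit, had 673, 1026 and 696 reads, or 294, 441 and 274 CPM. Its log2 ratio was 0.58 in IL4RaY709F (0.44 to 0.73), just short of 1.5-fold, and -0.11 in IL4Ra-/- (-0.26 to 0.05). The row named Atp5pb-ps had 38, 73 and 62 reads, and adding them gave Atp5pb a log2 ratio of 0.60 and took it past 1.5-fold, so its call depends on how reads were split between these copies. Atp5o, the subunit at the top of the stalk, stood at 23.6, 36.1 and 25.6 CPM and was 1.53-fold higher in IL4RaY709F (log2 0.61, 0.10 to 1.13), short of 1.5-fold with library totals (log2 0.50). Atp5h stood at 67.4, 92.0 and 67.6 CPM, with 0.45 (0.14 to 0.76). For these 3 stalk genes the IL4RaY709F library was the high one and the other libraries were alike.

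The 8 genes of the membrane part had medians of 0.21 and -0.34. The rotor ring of subunit c is encoded by 3 genes whose mature proteins are the same and whose import signals differ. Atp5g3 held most of their reads, at 113, 122 and 88.9 CPM in WT, IL4RaY709F and IL4Ra-/-, and Atp5g1 the fewest, at 14, 18.9 and 14.9. Atp5g2 stood at 20.6, 35.7 and 23.2 CPM, from 47, 83 and 59 reads, and was 1.74-fold higher in IL4RaY709F (log2 0.80, 0.26 to 1.34). Atp5md, a small subunit also named DAPIT, stood at 33.7, 43.9 and 26.7 CPM, with intervals against WT that included 1. Atp5l, subunit g, was lower in both mutants: it stood at 32.4, 21.5 and 22 CPM, 1.51-fold lower in IL4RaY709F (1.04 to 2.20), with a log2 ratio of -0.56 in IL4Ra-/- (-1.08 to -0.04). Per kb in WT, Atp5g1 was the lowest of the complex, at 2.85 RPKM.

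The medians of other short genes lay on the same side of 0 as the members', as the plot of log2 ratios by exon length shows, while in IL4RaY709F those of the longest genes did not. Among other genes with 100 or more summed reads and 1000 to 2000 exon bases, the median log2 ratio was 0.19 in IL4RaY709F and -0.21 in IL4Ra-/- (504 genes), and the 30 members of that length had 0.18 and -0.32. Of those 504 genes, 71% were above 0 in IL4RaY709F and 67.7% below 0 in IL4Ra-/-. Of the 30 members, 26 were above 0 and 23 below 0 in that order. At 3500 or more bases the other genes had medians of -0.03 and -0.06, and the 11 members 0.14 and -0.11. Over all genes within the members' 10th to 90th percentile of length (705 to 4130.5 bases) and of summed reads (103 to 746), 47 members had medians of 0.19 and -0.19, and the 1863 others had 0.07 and -0.11. The part of gene length in the members' medians was not tested.

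**Figure D3:**
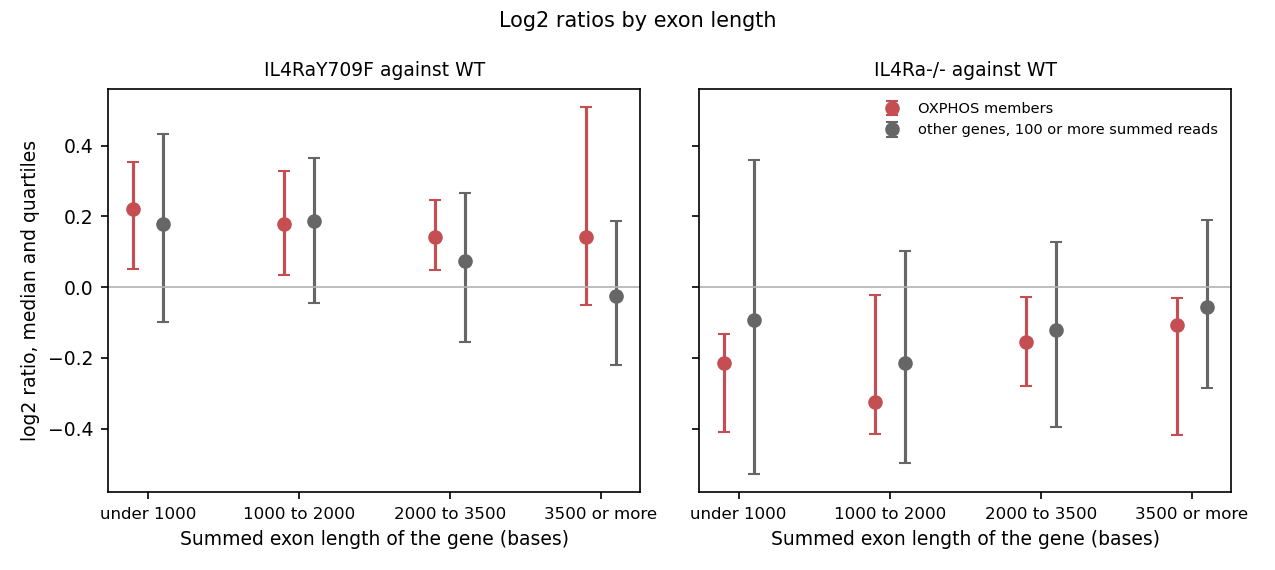
Log2 ratio (y axis) by summed exon length of the gene (x axis, 4 bins) for the members (red) and for other genes with 100 or more summed reads (grey). Points are medians and bars are quartiles. In the bin of 1000 to 2000 bases the medians are 0.18 and 0.19 in IL4RaY709F and -0.32 and -0.21 in IL4Ra-/-.

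Gene lists around the chain give context. Of the mitochondrially encoded respiratory subunits, 10 were measured, with medians of -0.02 in IL4RaY709F and -0.06 in IL4Ra-/-, and none passed the 1.5-fold rule. Their summed reads gave log2 ratios of 0.13 (0.12 to 0.15) and -0.11 (-0.13 to -0.09), so median and sum differed in sign in IL4RaY709F. The 39 assembly factors had 0.20 and 0.21, with none of the 6 that had 50 or more reads past the rule in either comparison. The 18 genes of the tricarboxylic acid cycle had 0.05 and 0.09, with 2 of 17 higher past 1.5-fold in IL4Ra-/-, against 6.52% of tested genes. The 76 mitochondrial ribosomal proteins had 0.21 and -0.04. The 77 cytosolic ribosomal proteins took 55625 reads in WT, against 11693 for the members. Their medians were 0.26 and -0.49, with 73 of 77 above 0 and 72 of 77 below 0 in that order. Of these genes with 50 or more reads, 2 of 76 were higher past 1.5-fold in IL4RaY709F, against 6.15% of tested genes. In IL4Ra-/- 28 of 75 were lower, against 8.85%. The 13 regulators of mitochondrial biogenesis had 0.10 and -0.02. Among them Nrf1 stood at 51.2, 56.8 and 35 CPM, Tfam, the mitochondrial DNA packaging factor, at 49.4, 49.4 and 53.5, and Ppargc1a had 0 reads in all 3 libraries. The 12 carriers beside the complexes had -0.02 and 0.08.

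The single cells show how evenly WT MMC9s carry these transcripts. Of 81 cells, 80 were kept, with 163596 to 2210211 gene reads each (median 1209300), and 1 was left out at 1225 reads and 680 genes. Cells that go against the label are named before the results. In 2 of the 80 cells plasma cell markers took 41.2% and 65.5% of reads, and the mast cell markers summed to 948 and 191 CPM in them. In 11 cells, 1 of which is among those 2, mitochondrial genes took 24.6% to 90.8% of reads. Their depth was 163596 to 523154 reads, under the 623183 of the shallowest of the 68 cells in neither group. In the 11 cells the mast cell markers summed to 948 to 71501 CPM, with a median of 13222. In the 68 cells these markers summed to 22194 to 191038 CPM, with a median of 65078. The highest macrophage marker sum of the 80 cells, 943 CPM, was in 1 of the 11, whose mast cell markers summed to 1494 CPM. Values are over 80 cells unless the 68 are named, and the split was chosen after seeing the data.

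The members summed to 92.2 CPM in the lowest cell, 6957 CPM in the median cell and 15542 CPM in the highest. Over the 68 cells the range was 3728 to 15430 CPM, with a median of 7336. The 11 cells with high mitochondrial reads had a median of 1199 CPM, and 2969 CPM when mitochondrial genes were left out of the total, against 7804 in the 68. The cell with the highest sum was itself one of the 11: complex V made up 10196 of its 15542 CPM. By complex the median cell had 2474 CPM for V, 1965 for I, 1388 for IV, 749 for III and 276 for II, the same order as in the WT bulk library. The coefficient of variation over cells was 0.459 for all members together and ranged from 0.517 (IV) to 1.06 (II) for the complexes. Over the 68 cells it was 0.325, and from 0.393 (V) to 0.920 (II).

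**Figure D4:**
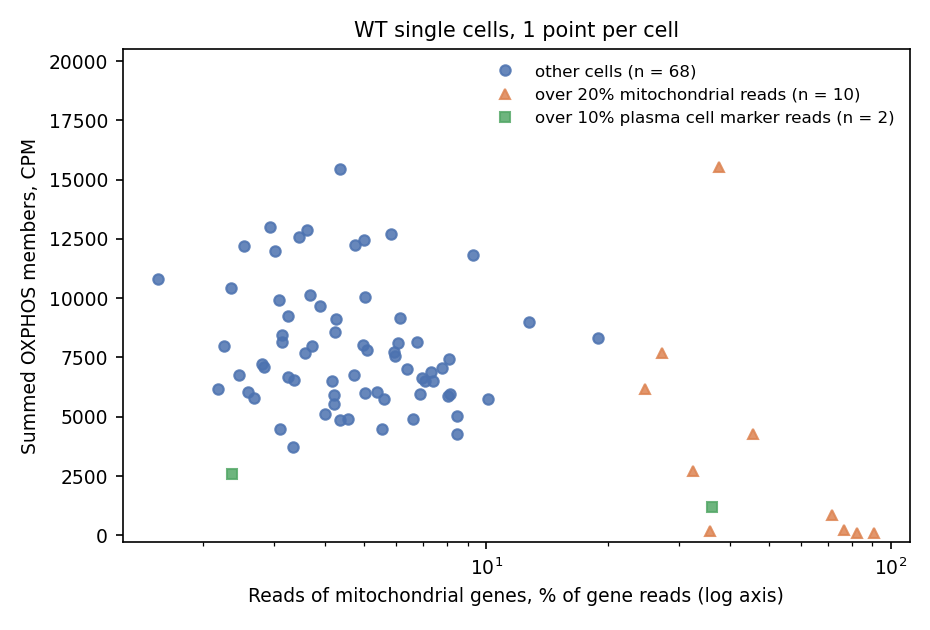
Summed CPM of the 76 members (y axis) against the share of reads from mitochondrial genes (x axis, log scale), 1 point per WT single cell (n = 80). Circles are the 68 other cells, between 3728 and 15430 CPM. Triangles have over 20% mitochondrial reads and squares over 10% plasma cell marker reads, with the 1 cell past both drawn as a square.

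A member reached 10 reads in a median of 56.25% of cells, against 13.75% over all tested genes, and in over 50% of cells for 47 of 76 members (12.7% of all tested genes). Over the 68 cells the median was 64.7%, and 56 of 76 members were in over 50% of cells, against 15.4% of tested genes. The complexes differed: the median was 71.9% for IV, 66.25% for V, 60% for III, 45% for I and 38.1% for II, and over the 68 cells 80.1%, 73.5%, 68.4%, 52.9% and 43.4%. Depth sets these shares in part, since each cell thinned to 150000 reads gave a median of 29.4% over the members.

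The members seen in most cells were Atp5pb (87.5%, exact interval 78.2 to 93.8%), Cox4i1 (86.25%), Cox6c (85%), Cox6a1 (83.75%) and Ndufa6 (82.5%). Cox6c is another nuclear subunit of complex IV. Their median levels were 581, 197, 79, 274 and 86.7 CPM. Over the 68 cells their shares were 95.6%, 94.1%, 89.7%, 91.2% and 92.6%. Those seen in fewest were Ndufs3 (25%, 16 to 35.9%), Ndufv1 (26.25%), Sdhd and Ndufa9 (27.5% each) and Sdhc (28.75%), each with a median of 0 CPM. Over the 68 cells these shares were 29.4% for Ndufs3, 30.9% for Ndufv1 and Ndufa9, 32.4% for Sdhd and 33.8% for Sdhc. Ndufa9 stabilizes the junction of the 2 arms of complex I. The rarest of these reached 413 CPM in single cells (Ndufs3) and 1141 CPM (Ndufv1), so a low share went with high levels in some cells. Several catalytic subunits were seen in fewer cells: Sdha reached 10 reads in 47.5% of cells and Ndufs1 in 42.5%, while Atp5a1 did in 78.75% and Atp5b in 72.5%. The c subunit genes were detected alike, Atp5g1 in 57.5%, Atp5g2 in 65% and Atp5g3 in 60%, although Atp5g3 was highest in bulk.

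**Figure D5:**
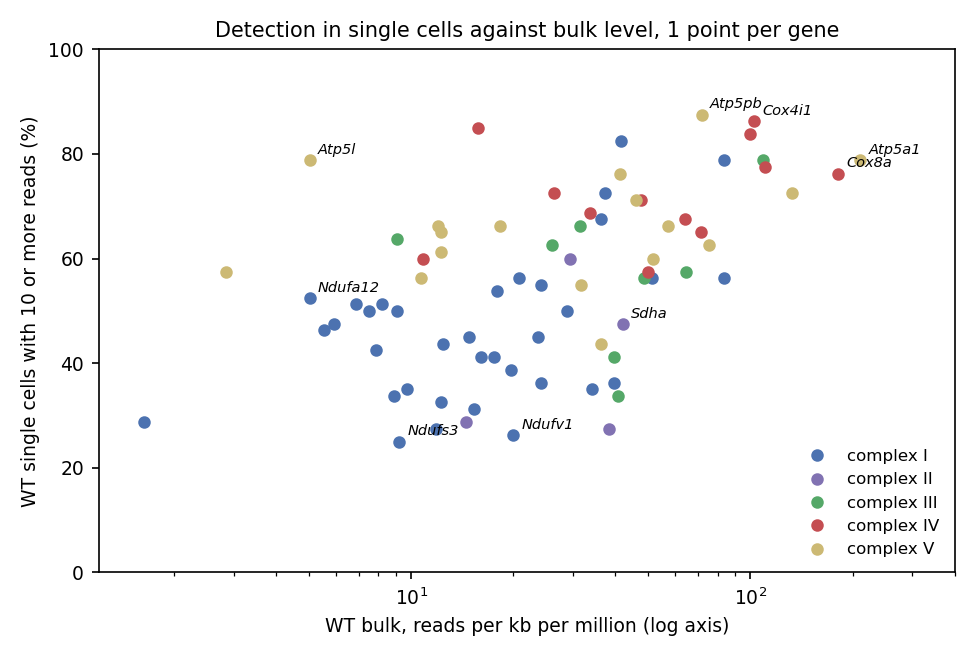
Share of the 80 WT single cells with 10 or more reads (y axis) against the level in the WT bulk library in RPKM (x axis, log scale), 1 point per member, coloured by complex. Complex IV members lie between 57.5% and 86.25%, while complex I members reach down to 25%.

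Across the 76 members, RPKM of the pooled cells and of WT bulk had a Spearman rho of 0.90. Pooled cells had the higher level for 69 of 76 members, against 4523 of the 10479 tested genes. The median log2 difference was 0.78 over the members and -0.27 over all tested genes. With the 68 cells rho was 0.89, and 70 of 76 members were higher. The 2 data sets came from different models and preparations, which cannot be told apart here. Exon lengths are the union of all annotated exons, retained introns included, so levels per kb of genes such as Atp5l (6443 bases) are low estimates.

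Across the 80 cells, members' CPM had a Spearman rho of 0.76 with cytosolic ribosomal proteins, 0.50 with mitochondrial ribosomal proteins, 0.35 with read depth and -0.35 with mitochondrially encoded subunits. Over the 68 cells these were 0.70, 0.48, 0.23 and -0.20. Between pairs of complexes rho ranged from 0.25 to 0.61, highest for I with IV, and over the 68 cells from 0.03 to 0.55. All these values share each cell's total and library, and no test was made of them.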

How the data were processed

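RNA-seq was done on 3 bulk libraries and 81 single cells of MMC9s. The tools named per the submitters' processing notes are HISAT and featureCounts (Subread 2.0.0). The same notes name GRCm38 and mm9 without roles, and the members' coordinates matched GRCm38. The deposited values are raw gene counts, whole numbers that the authors left unscaled. How strand and multi-mapping reads were treated is unknown here, so overlapping genes and near copies are uncertain.

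Counts were scaled with TMM (edgeR 4.0.16, R 4.3.3). With 1 library per genotype no test across replicates was possible and no p-value was computed. Ratios carry exact conditional binomial (Clopper-Pearson) 95% intervals, which cover counting error only. The ratio script was tested on simulated data. Cells were kept at 500 or more detected genes and 10000 or more reads, with 10 reads as detection; cells were sorted singly and no doublet caller was run.

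Alternatives were library totals, DESeq2 1.42.0 size factors, totals without mitochondrial, immunoglobulin and rRNA reads, other read minimums, the mean and the summed ratio, structural subunits only, and other cell settings. After seeing the data, alternatives with the -ps names and without 12 cells that stand apart were added. Named genes are core subunits and isoform sets, the 6 highest and 6 lowest ratios per comparison among members with 100 or more reads in the larger library, those past the 2-fold rule, the extremes per kb in each complex, and the 5 most and 5 least detected in cells. Members past the 1.5-fold rule and others named beside them (Uqcrb, Atp5o, Ndufb3, Atp5l) were chosen after their values were seen. The members and lists were chosen with earlier results of these data known. The values of 1 member that the rule would name are not reported here.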

Additional observations from a re-analysis of the deposited data

How the results depend on the processing

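Library totals in place of TMM shifted every log2 ratio by -0.11 (IL4RaY709F against WT), 0.13 (IL4Ra-/- against WT) and -0.24 (between the mutants), all genes alike, so the members' distance from the median of all genes did not change. The members' medians became 0.075, -0.077 and 0.20, with 28 of 76 above 0 in IL4Ra-/-, and the counts past the 1.5-fold rule became 2 in IL4RaY709F and 6 between the mutants, where 1 passed the 2-fold rule. Complex II changed sign, to -0.11, 0.048 and -0.15, and was -0.00089 in IL4RaY709F with totals that left out mitochondrial, immunoglobulin and rRNA reads. The mean of the log2 ratios between the mutants was 0.41. In single cells the median share detected was 69.4% at 1 read and 29.4% after thinning to 150000 reads; the members' median was 7472 CPM with mitochondrially encoded genes left out of the total and 7336 CPM without the 12 cells that stand apart. The other 122 of 134 summary values under an alternative stayed within counting error, or within 1.5 times for counts. No paired analysis was possible because each genotype had 1 library. Counting limits the smaller members: 12 of 76 had under 50 reads in each library of the IL4RaY709F comparison, and pooling hides the spread between animals.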
